A study of Homo sapiens and Mus musculus with 36 samples.

Results

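The annexins and the S100 proteins are described here across 4 tumour cell lines, as the transcripts whose symbols are ANXA followed by a number, or S100A followed by a number, S100B, S100G, S100P or S100Z, with mouse symbols spelled in title case. The rule uses names and no measured value. The HuH-7 files of the guide experiment list 31 such genes (12 annexins and 19 S100 genes) among 26457, the HuH-7 drug files list 20 among 15899, and the mouse files list 28 (12 annexins and 16 S100 genes) among 22673. The series holds 36 RNA sequencing libraries.

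The human line, HuH-7, comes from a hepatocellular carcinoma. Of the mouse lines, Hepa1-6 and Hep53.4 carry that label too, and LLC is a Lewis lung carcinoma. In every line DOT1L knockout (KO) cells, made with guide sg1 or guide sg2 (2 libraries each), were set against wild type cells that carry the control guide sgNeg2 (2 libraries). HuH-7 KO and sgNeg2 cells were sequenced with interferon (IFN) and without it. Which IFN was used, and its dose and time, are not known here. HuH-7 cells with the wild type label also received the DOT1L inhibitor EPZ-5676 for 7 days (3 libraries) or DMSO (3 libraries), with no time given for DMSO. All cells grew in the same serum-containing medium. The labels do not say whether KO cells are clones or pools, nor whether replicates are separate cultures. The p-values therefore measure the spread between these libraries, which may be technical. Libraries of sg1 and sg2 were pooled into the KO group, so the spread within KO also holds differences between guides.

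Annexins bind negatively charged phospholipids when calcium rises, through a folded core of repeated domains, and take part in membrane repair, endocytosis and exocytosis. S100 proteins are small dimers with EF-hand calcium sites that change shape on binding calcium and then dock onto partner proteins, several of which are annexins. Annexin A2 with S100A10, and annexin A1 with S100A11, are the best known such pairs, and S100A8 with S100A9 forms calprotectin, a secreted protein of neutrophils. DOT1L is a histone H3 methyltransferase found on transcribed genes. Several members of both families are known as markers of tumour cells.

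Most of the human S100A genes lie together on chromosome 1, with S100A10 and S100A11 apart from them on the same arm. In GENCODE release 29 on GRCh38 the 13 genes span 274186 bases (chr1:153357854-153632039), in the order S100A9, S100A12, S100A8, S100A7, S100A6, S100A5, S100A4, S100A3, S100A2, S100A16, S100A14, S100A13 and S100A1. S100A6 (chr1:153534599-153536244, minus strand) and S100A4 (chr1:153543613-153550136, minus strand) are separated only by S100A5, which had no count. S100A10 lies at chr1:151982915-151994390 on the minus strand. The promoter windows of S100A4 and S100A6 are shown because these neighbours rose in every HuH-7 comparison of KO or EPZ-5676, and that of S100A10 because it fell with EPZ-5676, and in KO cells with IFN, where they rose. Each window is RefSeq sequence of GRCh38.p14, runs from 250 bases before to 50 after the gene's RefSeq start, and is on the minus strand (chr1:153545757-153546056, chr1:153535942-153536241 and chr1:151993810-151994109). Capitals mark matches to the TATA box, spelled TATAAA, or to the promoter motif known as the GC box, which is spelled GGGCGG. Both were searched on both strands, with overlapping matches counted. The motifs were chosen with the results known.
S100A4: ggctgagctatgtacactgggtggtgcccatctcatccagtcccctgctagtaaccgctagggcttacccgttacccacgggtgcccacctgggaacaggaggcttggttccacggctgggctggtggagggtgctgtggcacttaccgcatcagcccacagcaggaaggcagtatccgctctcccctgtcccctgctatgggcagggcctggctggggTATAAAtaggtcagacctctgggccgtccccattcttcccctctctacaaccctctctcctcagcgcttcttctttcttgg
S100A6: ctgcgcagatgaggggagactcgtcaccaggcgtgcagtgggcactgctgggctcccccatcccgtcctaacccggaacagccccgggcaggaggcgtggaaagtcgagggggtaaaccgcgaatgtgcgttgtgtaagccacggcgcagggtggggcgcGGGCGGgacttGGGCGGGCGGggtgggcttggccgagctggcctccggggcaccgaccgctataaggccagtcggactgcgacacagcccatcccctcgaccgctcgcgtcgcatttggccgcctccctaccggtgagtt
S100A10: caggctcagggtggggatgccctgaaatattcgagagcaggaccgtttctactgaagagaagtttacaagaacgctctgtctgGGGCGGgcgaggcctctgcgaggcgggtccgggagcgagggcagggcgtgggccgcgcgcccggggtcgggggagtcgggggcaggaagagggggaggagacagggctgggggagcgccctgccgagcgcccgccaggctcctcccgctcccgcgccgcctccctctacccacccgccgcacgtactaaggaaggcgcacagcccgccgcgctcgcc
RefSeq and GENCODE differ in where these genes start: the RefSeq start lies inside the GENCODE gene by 4330 bases for S100A4, 253 for S100A6 and 531 for S100A10. The S100A4 window holds 1 TATA box, 0 GC boxes and 8 CpG dinucleotides. That of S100A6 holds 0 TATA boxes, 3 GC boxes and 31 CpG, and that of S100A10 holds 0 TATA boxes, 1 GC box and 32 CpG. Among 27305 RefSeq promoter windows of the same length, 12% hold the TATA box and 44.6% the GC box, and the median is 14 CpG. The neighbours S100A4 and S100A6 thus have unlike windows by these letters, and the CpG count of S100A6 is close to that of S100A10. RefSeq windows were matched for 28 of the 31 human members.

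HuH-7 cells carried a limited set of the family. In sgNeg2 cells without IFN, S100A10 had the highest level per length, 221.6 CPM per kb (CPM after scaling, divided by the length of the gene's exons in GENCODE 29). S100A11 followed at 75.3, ANXA2 at 62, ANXA5 at 56.3 and ANXA7 at 43.6 CPM per kb. ANXA4 (18.6), ANXA11 (13.2), S100A13 (9.84), S100A6 (8.2) and ANXA6 (7.67 CPM per kb) made up the middle of the range. S100A4 (1.78), S100A16 (0.364) and ANXA1 (0.0281 CPM per kb) were low. No count was found in any of the 12 guide libraries for 6 S100 genes, S100A5, S100A7, S100A8, S100A12, S100B and S100G, which allows up to 0.00676 CPM (3 counts over all 12 libraries, counting error only). This order rests on single genes in 1 line and on exon lengths of all annotated transcripts, so neighbours in it were not tested.

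DOT1L transcripts were lower in every KO library than in the sgNeg2 libraries of its setting, with log2 changes of -1.06 without and -0.97 with IFN in HuH-7, and for mouse Dot1l of -1.48 in Hepa1-6, -0.67 in Hep53.4 and -1.02 in LLC. EPZ-5676 cells held 49.3, 51.1 and 47.6 CPM of DOT1L against 51.8, 54.5 and 52.3 CPM with DMSO. Each HuH-7 guide library summed to between 47594968 and 61227426 counts with IFN and between 19580588 and 22649969 without it, each drug library to between 48912627 and 58628528, and each mouse library to between 42637155 and 59686358. The members took 0.18 to 0.203% of the counts in HuH-7 with IFN, 0.173 to 0.182% without it, and 0.623 to 1.06% in the mouse lines. All 10 hepatocyte markers exceeded 5 CPM in HuH-7 sgNeg2 cells. In the sgNeg2 cells of Hepa1-6, 6 of 9 listed hepatocyte markers did so, and in those of Hep53.4 only 2 of 9. LLC sgNeg2 cells had 0 of 8 lung epithelium markers above 5 CPM, with summed levels of 1.08 to 1.29 CPM, so these defining markers of lung epithelium were near 0 in LLC.

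In HuH-7 KO cells without IFN, S100A4, S100A6, S100A16, ANXA1 and ANXA4 rose and ANXA6 fell. The comparison asks which members depend on DOT1L in this line. Of the 31 members, 21 passed the filter on low counts and were tested, and 6 of these passed an adjusted p below 0.05 (28.6%), against 11.3% of all 16448 genes tested. Those that rose were 5, where 6.95% of all genes did, and 1 fell, where 4.38% did. With RLE scaling in place of TMM, 5 rose and 2 fell. The median log2 change was 0.18 over the members tested and 0 over all genes. A member that passed the filter only through the KO libraries had to be higher there, so the count and the median describe these 21 genes and not the family. ANXA1 is such a gene. ANXA13, S100A14, S100A2 and S100A9 also had under 10 counts in each sgNeg2 library. Their positive changes, none past the threshold, raise the median of the members.

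S100A4, a calcium sensor that binds nonmuscle myosin and is linked to cell motility and metastasis, changed most clearly. It held 7.63 and 7.25 CPM in the sg1 libraries and 6.69 and 5.44 CPM in the sg2 libraries, against 1.68 and 1.96 CPM in the sgNeg2 libraries. Every KO library lay above both sgNeg2 libraries, and the rise was 3.71-fold (log2 1.89 ± 0.23 SE, edgeR adjusted p = 0.000133). It passed the threshold under all 13 alternatives tried. S100A6 (calcyclin), its neighbour, held 12.7, 13.7, 13 and 12.8 CPM in KO and 7.45 and 8.47 CPM in sgNeg2 libraries, a log2 change of 0.71 ± 0.19 (edgeR adjusted p = 0.0263). The groups did not overlap, but the call was lost in 7 of 13 alternatives (adjusted p up to 0.255, log2 0.62 to 0.76), among them the fits without sgNeg2 replicate 1 (0.62) or sgNeg2 replicate 2 (0.76), without sg1 replicate 1 (0.68), sg1 replicate 2 (0.64) or sg2 replicate 1 (0.71).

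S100A16, a broadly expressed S100 protein further along the same cluster, held 1.56, 1.71, 1.55 and 1.3 CPM in KO and 0.517 and 0.724 CPM in sgNeg2 libraries. Its log2 change was 1.30 ± 0.28 (edgeR adjusted p = 0.00841), and 1.08 (adjusted p = 0.148) without sgNeg2 replicate 1. The other genes of the cluster that could be tested did not pass. S100A2 had a log2 change of 1.57 ± 0.72 (adjusted p = 0.19), S100A14 of 1.68 ± 1.07 (adjusted p = 0.355) and S100A9 of 2.47 ± 1.05 (adjusted p = 0.163), all with fewer than 20 counts in every library. S100A13, which serves the release of fibroblast growth factor, changed by 0.19 ± 0.15 (adjusted p = 0.474), and S100A1, better known from muscle, by -0.27 ± 0.28 (adjusted p = 0.605). Exons of S100A1 and S100A13 overlap on opposite strands, and whether counting used the strand is not stated.

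ANXA1, the annexin A1 gene, whose protein is induced by glucocorticoids and curbs inflammation through formyl peptide receptors, was nearly silent in control cells. The KO libraries held 28, 21, 22 and 25 counts (1.15, 0.875, 1 and 1.16 CPM), against 3 and 3 counts (0.129 and 0.128 CPM) in sgNeg2 libraries. All 4 KO libraries lay above the sgNeg2 libraries, and the fitted change was 7.96-fold (log2 2.99 ± 0.49, edgeR adjusted p = 0.00163), and the level stayed low in both groups. With under 10 counts in each sgNeg2 library, ANXA1 was tested only because the KO libraries were high, so its test gives no support beyond the counts. ANXA4, which binds membranes of epithelial cells, held 239.9, 243.3, 252.4 and 266 CPM in KO and 203.2 and 207 CPM in sgNeg2 libraries (log2 0.29 ± 0.06, adjusted p = 0.0107). ANXA6, an annexin with a duplicated core that acts on endosomal cholesterol, held 32.4, 33.7, 33.9 and 28.4 CPM in KO and 42.3 and 40.8 CPM in sgNeg2 libraries (log2 -0.37 ± 0.09, adjusted p = 0.0197). The groups of both genes were apart. ANXA4 lost its call without sgNeg2 replicate 1 (0.27), sgNeg2 replicate 2 (0.26) or sg1 replicate 2 (0.26), and with sg1 alone (0.19, adjusted p = 0.153) or sg2 alone (0.30, adjusted p = 0.059), and ANXA6 without sgNeg2 replicate 1 (-0.35) or sgNeg2 replicate 2 (-0.44).

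**Figure D1:**
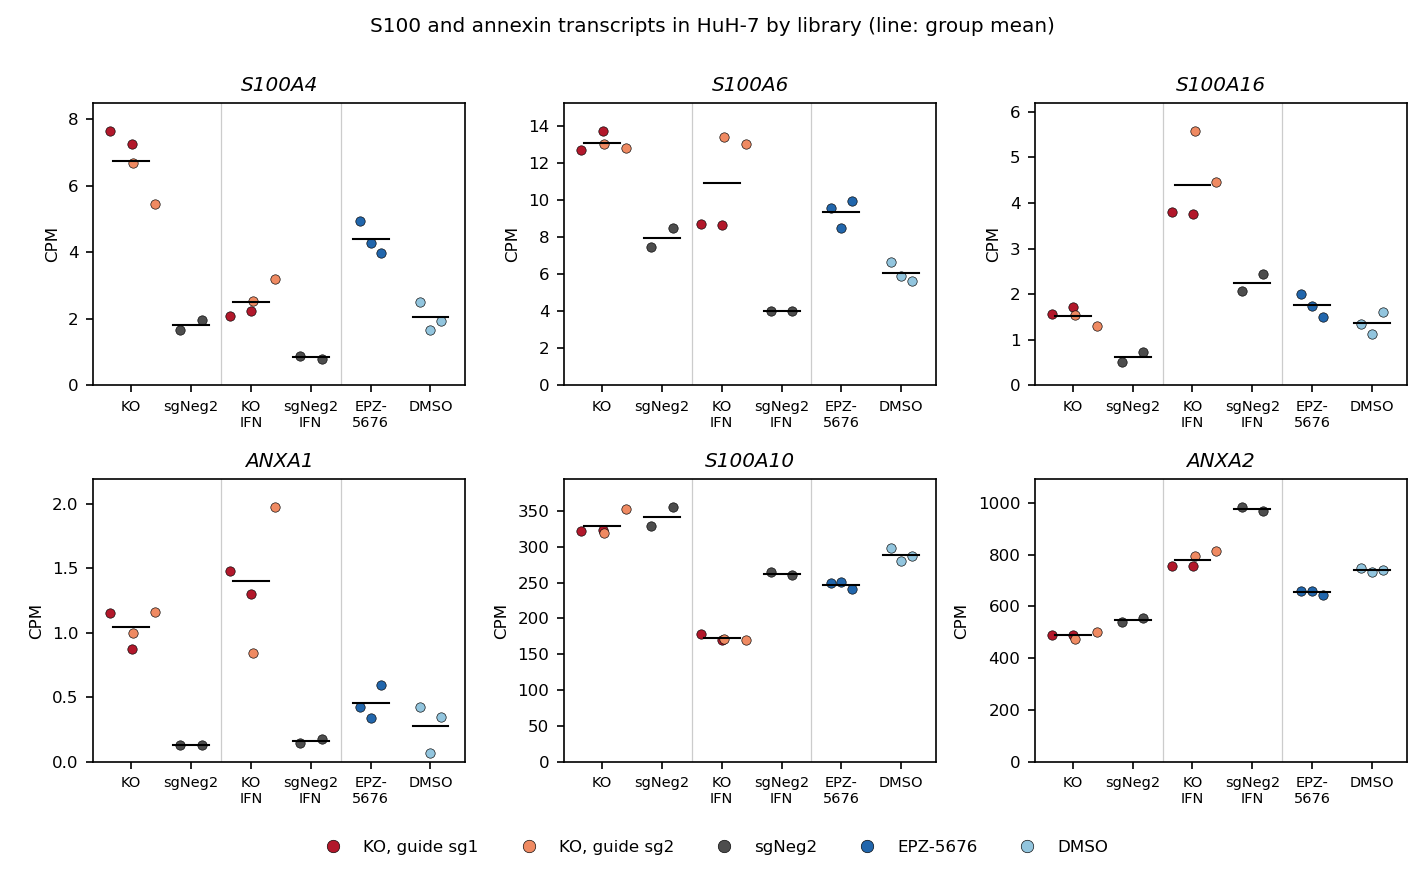
Levels (CPM) of 6 members in each HuH-7 library, with the group mean as a line, for KO and sgNeg2 cells without and with IFN and for EPZ-5676 and DMSO. S100A4 ran from 5.44 to 7.63 CPM in KO cells without IFN, above the 1.68 and 1.96 CPM of sgNeg2 cells, while S100A10 separated KO from sgNeg2 cells with IFN (169.5 to 178.4 against 260.1 and 264.4 CPM) and not without it.

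With IFN, the same 3 S100 genes of the cluster and ANXA1 were again higher in KO cells, and the annexin A2 pair was lower. Of 21 members tested, 5 rose (S100A4, S100A6, S100A16, S100A9, ANXA1) and 3 fell (S100A10, ANXA2, ANXA3), 38.1% against 12.4% of all 16448 genes (7.11% rose and 5.27% fell). S100A9 and ANXA1 passed the filter only through the KO libraries and had to be higher there. The count and its share therefore describe these 21 genes and not the family. The median log2 change was -0.07 over the members and -0.06 over all genes. These KO and sgNeg2 libraries are separate from those without IFN, so the 2 comparisons share no library.

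S100A4 held 2.08, 2.25, 2.54 and 3.19 CPM in KO and 0.899 and 0.799 CPM in sgNeg2 libraries with IFN. The log2 change was 1.56 ± 0.23 (edgeR adjusted p = 0.000446). S100A6 held 8.71 and 8.65 CPM with sg1 and 13.4 and 13 CPM with sg2, against 4.04 and 4.04 CPM in sgNeg2 libraries. The sg2 libraries were the higher ones, a difference between guides that was not tested, all 4 KO libraries lay above sgNeg2, and the log2 change was 1.44 ± 0.19 (adjusted p = 0.000224). CACYBP, the ubiquitin ligase component that S100A6 binds, changed by -0.21 ± 0.08 (adjusted p = 0.119) with IFN and by 0.24 ± 0.08 (adjusted p = 0.0946) without it. S100A16 held 3.8, 3.75, 5.57 and 4.46 CPM in KO and 2.06 and 2.44 CPM in sgNeg2 libraries (log2 0.97 ± 0.21, adjusted p = 0.00779, and 0.85 with adjusted p = 0.101 without sgNeg2 replicate 1).

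ANXA1 held 74, 67, 48 and 90 counts in KO libraries with IFN and 6 and 8 counts in sgNeg2 libraries, or 1.48, 1.3, 0.841 and 1.97 CPM against 0.142 and 0.173 CPM. Its change was 8.66-fold (log2 3.11 ± 0.41, edgeR adjusted p = 0.000194), and it too passed the filter only through the KO libraries. KO cells again stood apart at a low level. S100A11, the S100 partner of annexin A1, was abundant and did not pass the test, with log2 changes of -0.07 ± 0.12 (adjusted p = 0.785) with IFN and 0.13 ± 0.12 (adjusted p = 0.544) without it. S100A9, a subunit of calprotectin, had 8, 8, 13 and 11 counts in KO libraries and none in either sgNeg2 library with IFN. Against 3 counts over both sgNeg2 libraries this is at least 5.78-fold higher (edgeR adjusted p = 0.0183, 0.108 without sgNeg2 replicate 1 and 0.121 without sgNeg2 replicate 2, where the fitted log2 was 5.82 and 5.8). S100A9 passed the filter only through the KO libraries. S100A8, the other subunit, had no count in any guide library, so no pair of calprotectin transcripts was detected.

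S100A9 and S100A4 are also leukocyte transcripts, and 2 leukocyte markers, LYZ and ITGAM, were higher in every KO library with and without IFN. The summed level of 10 leukocyte and myeloid markers was 119.2 to 158.8 CPM in KO and 49.2 to 49.5 CPM in sgNeg2 cells without IFN, and 228.7 to 250.1 against 89.3 to 92.5 CPM with it. LYZ, the lysozyme gene, made up most of it (115.4 to 153.7 CPM in KO against 44.3 and 44.7 CPM in sgNeg2 libraries without IFN). ITGAM, a myeloid integrin gene, held 0.246 to 0.605 CPM in KO and 0.0431 and 0.0852 CPM in sgNeg2 libraries without IFN, and 0.33 to 0.765 against 0.0648 and 0.142 CPM with it. CD14, another of the 10, was lower in every KO library without IFN (3.19 to 3.95 against 4.26 and 4.3 CPM). With IFN its groups overlapped (4.06 to 6.18 against 4.23 and 4.89 CPM). PTPRC, which defines leukocytes, had no count in any guide library, and 4 of the 10 markers had none. The summed level of 6 fibroblast markers was 70.2 to 79.3 CPM in KO and 120.2 to 120.3 CPM in sgNeg2 cells without IFN. PDGFRA made up most of that sum (67.8 to 76.4 CPM in KO against 118.3 and 120.2 CPM in sgNeg2 libraries), while LUM, another of the 6, was higher in KO (2 to 2.54 against 0.0431 and 0.298 CPM, and 1.08 to 2.23 against 0.0473 and 0.0864 CPM with IFN). Their part in these results was not tested. The 10 hepatocyte markers summed to 13394.8 to 15529.5 CPM in KO and 16447.5 to 16500.3 CPM in sgNeg2 cells without IFN. They did not move as 1 group. AFP (548.1 to 655.9 against 328.6 and 331.4 CPM) and APOA2 (86.6 to 96.7 against 79.8 and 81.6 CPM) were higher in every KO library. ALB, TF, APOA1, SERPINA1, HNF4A, FGB and TTR were lower in every KO library, and APOB overlapped. In bulk samples fewer cells of a type and less RNA per cell cannot be told apart.

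The annexin A2 pair behaved differently from the cluster. Annexin A2 and S100A10 form a complex at the plasma membrane that holds plasminogen and its activator, and S100A10 protein is unstable without annexin A2. S100A10 held 178.4, 169.5, 171.8 and 169.8 CPM in KO and 264.4 and 260.1 CPM in sgNeg2 libraries with IFN. KO cells thus had 0.657 of the sgNeg2 level with no overlap (log2 -0.61 ± 0.06, edgeR adjusted p = 3.18e-05). Without IFN the KO libraries held 321.7, 323.5, 319.5 and 353.3 CPM and the sgNeg2 libraries 328.7 and 355.3 CPM, which overlap (log2 -0.05 ± 0.06, adjusted p = 0.651). The interaction of genotype and IFN was -0.55 ± 0.09 for S100A10 (adjusted p = 0.0183), the 1 member of 21 to pass (4.76%, against 0.505% of all genes, of which 0.207% were positive and 0.298% negative).

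The interaction depended on each control library. It missed the threshold without sgNeg2 replicate 1 (-0.49, adjusted p = 0.178) or sgNeg2 replicate 2 (-0.51, adjusted p = 0.214) of the cells without IFN, without either sg1 library of those cells (-0.47 and -0.46), and without IFN sgNeg2 replicate 1 (-0.54) or replicate 2 (-0.56). IFN and the kind of library cannot be told apart here, since the share of counts on histone genes was 0.0329 to 0.0472% in every library with IFN and 0.827 to 1% in every one without it. ANXA2 held 757.4, 754.7, 793.6 and 814.1 CPM in KO and 982.7 and 968.3 CPM in sgNeg2 libraries with IFN (log2 -0.32 ± 0.06, adjusted p = 0.00191, and -0.26 with adjusted p = 0.051 when the 6 libraries with IFN were fitted apart). Without IFN it held 487.7, 490.7, 473.7 and 501.5 CPM in KO and 538.6 and 555.9 CPM in sgNeg2 libraries, apart but not past the threshold (log2 -0.16 ± 0.06, adjusted p = 0.0842). ANXA2 shares sequence with several processed pseudogenes, and counting could split its reads with them.

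ANXA3, an annexin abundant in neutrophils, fell with IFN. It held 13.1, 13.9, 13 and 12.2 CPM in KO and 17.2 and 19.8 CPM in sgNeg2 libraries (log2 -0.51 ± 0.13, edgeR adjusted p = 0.0187), and -0.60 (adjusted p = 0.0502) or -0.40 (adjusted p = 0.223) without sgNeg2 replicate 1 or 2. Without IFN its change was 0.18 ± 0.13 (adjusted p = 0.444). The remaining annexins tested did not pass in either setting. ANXA11, which tethers RNA granules to lysosomes, held 133.5, 129.3, 160.4 and 165.5 CPM in KO and 183.4 and 173.5 CPM in sgNeg2 libraries with IFN (log2 -0.28 ± 0.10, adjusted p = 0.102). ANXA9, an annexin without working calcium sites, held 5.23, 5.56, 5.19 and 6.05 against 9.27 and 6.13 CPM (log2 -0.48 ± 0.16, adjusted p = 0.0606). ANXA5, the phosphatidylserine binder used as a probe of dying cells, held 163.8, 167.4, 164.3 and 154.6 against 185 and 188.7 CPM (log2 -0.20 ± 0.08, adjusted p = 0.11). The KO libraries of ANXA11, ANXA9 and ANXA5 with IFN lay below both sgNeg2 libraries, for ANXA9 only narrowly (6.05 against 6.13 CPM). None of them passed the threshold. How many of all genes lie apart in this way was not counted, so no fall is read from it. The same limit holds for every gene described here, in any line, as apart or without overlap. Separation of its libraries adds nothing to its test. ANXA6 with IFN changed by 0.19 ± 0.09 (adjusted p = 0.232) and ANXA4 by -0.12 ± 0.06 (adjusted p = 0.268), and their interactions with IFN were 0.56 (adjusted p = 0.0874) and -0.41 (adjusted p = 0.0694).

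IFN itself was compared in sgNeg2 cells, where 6 members were higher with IFN and 6 lower, 57.1% of 21 against 67.8% of all genes (33% higher and 34.7% lower). S100A11 rose to 117.1 and 120 CPM with IFN, against 49.8 and 52.6 CPM without it (log2 1.21 ± 0.14, edgeR adjusted p = 4.65e-06), and S100A16, ANXA2, ANXA7, ANXA11 and ANXA4 had positive changes of 1.85, 0.83, 0.79, 0.67 and 0.33. S100A1 (-1.76), S100A4 (-1.10), S100A6 (-0.98), ANXA9 (-0.65), S100A10 (-0.38) and ANXA6 (-0.26) were lower. ANXA6 lost this call in 6 of 9 alternatives, among them leaving out any 1 of the 4 libraries (-0.34 to -0.23, adjusted p = 0.05 to 0.188), and ANXA9 without IFN sgNeg2 replicate 2 (-0.38, adjusted p = 0.0808). IFN and the kind of library cannot be told apart in these values either. Against the DMSO libraries, whose histone share of 0.03 to 0.0344% is like that of the IFN libraries, S100A11 was 0.57, S100A16 0.65, ANXA2 0.33, ANXA11 0.26 and ANXA7 0.13 higher on the log2 scale. The others were lower against DMSO as well, S100A4 (-1.34), ANXA9 (-1.04), ANXA6 (-0.89), S100A1 (-0.80), S100A6 (-0.66) and S100A10 (-0.21), while ANXA4 turned to -0.35. The DMSO cells carry no guide and were listed in other files.

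EPZ-5676, which blocks the enzyme and leaves the gene intact, moved S100A4, S100A6 and S100A11 up and S100A10, ANXA2, ANXA5, ANXA9 and ANXA11 down. Of 19 members tested, 8 passed (42.1%), against 33.7% of all 15023 genes (15.1% rose and 18.6% fell), with a median log2 change of -0.01 over the members and 0.01 over all genes. S100A4 held 4.94, 4.29 and 3.98 CPM with EPZ-5676 and 2.52, 1.68 and 1.94 CPM with DMSO. This 2.15-fold rise (log2 1.10 ± 0.17, edgeR adjusted p = 3.37e-07) was the largest among the members called. S100A6 held 9.59, 8.5 and 9.96 CPM with EPZ-5676 and 6.65, 5.92 and 5.65 CPM with DMSO (log2 0.62 ± 0.11, adjusted p = 3.19e-06). S100A11, which binds annexin A1 in membrane repair, held 92.2, 89.7 and 87.6 CPM with EPZ-5676 and 77.1, 75.1 and 76.1 CPM with DMSO (log2 0.24 ± 0.03, adjusted p = 2.21e-10). In these 3 genes all EPZ-5676 libraries lay above all DMSO libraries, and how many of all genes do so was not counted.

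The annexin A2 pair fell with the inhibitor by small amounts. S100A10 held 249.3, 251.5 and 241.6 CPM with EPZ-5676 and 299, 280.3 and 287.1 CPM with DMSO (log2 -0.22 ± 0.02, edgeR adjusted p = 1.84e-13). ANXA2 held 659.7, 660.6 and 645.3 against 748.4, 734.4 and 739.1 CPM (log2 -0.18 ± 0.01, adjusted p = 2.25e-18). Both genes had no overlap between groups. ANXA5 (log2 -0.13 ± 0.02, adjusted p = 7.19e-07), ANXA9 (-0.23 ± 0.08, adjusted p = 0.0167) and ANXA11 (-0.07 ± 0.03, adjusted p = 0.023) fell too. ANXA9 lost its call without DMSO replicate 2 or EPZ-5676 replicate 3, and ANXA11 without DMSO replicate 3 or EPZ-5676 replicate 1 or 2, with log2 changes that stayed between -0.28 and -0.17 and between -0.09 and -0.06. ANXA1 did not pass, at 0.425, 0.337 and 0.59 CPM with EPZ-5676 and 0.419, 0.0623 and 0.347 CPM with DMSO (log2 0.68 ± 0.48, adjusted p = 0.298), nor did S100A16 (log2 0.36 ± 0.24, adjusted p = 0.255). S100A4 again moved with the summed level of the listed leukocyte and myeloid markers, 171.6 to 180.5 CPM with EPZ-5676 and 86.7 to 90.1 CPM with DMSO. LYZ made up most of that sum, while CD14 overlapped between the groups (4.17 to 4.7 against 2.69 to 4.61 CPM). The part of these markers in the result was not tested. ANXA3 (-0.01), ANXA4 (-0.01), ANXA6 (0.06) and S100A9 (0.95) did not pass with EPZ-5676. The drug files hold no count below 1, so nothing is said of members they do not list. SRI, the EF-hand partner of annexin A7, rose by 0.24 ± 0.04 (adjusted p = 4.93e-08), and CACYBP fell by 0.13 (adjusted p = 3.08e-05).

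**Figure D2:**
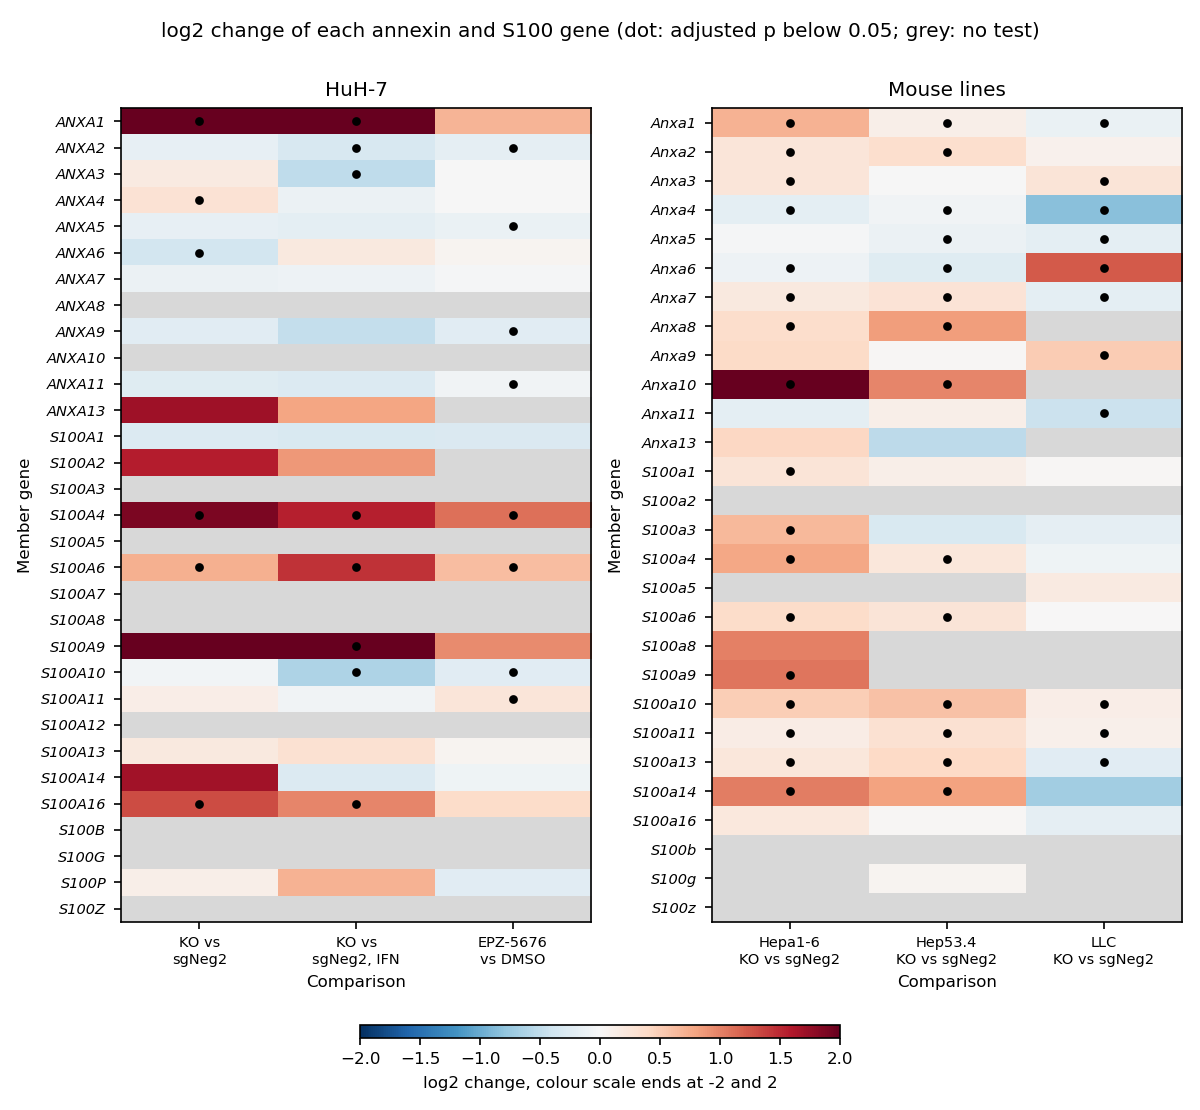
Log2 change of each member in 3 HuH-7 comparisons (left) and in KO against sgNeg2 cells of 3 mouse lines (right), as colour, with a dot at an adjusted p below 0.05 and grey where no test was made. S100A9 and ANXA13 with IFN are drawn at their lower bounds (2.53 and 0.79), and S100A4 and S100A6 carry dots in all 3 HuH-7 columns.

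In Hepa1-6 most members rose in KO cells. Of 28 members listed, 23 were tested, 15 rose and 2 fell (73.9%), against 32.8% of all 12493 genes (14.5% rose and 18.3% fell), and the median log2 change was 0.35 over the members and 0.01 over all genes. S100a4 held 16.4, 18.1, 15.6 and 16.6 CPM in KO and 9.18 and 10.6 CPM in sgNeg2 libraries (log2 0.77 ± 0.10, edgeR adjusted p = 4.24e-06). S100a6 held 1811.6, 1815.1, 1781.7 and 2051.7 CPM in KO and 1372.8 and 1544.6 CPM in sgNeg2 libraries (log2 0.36 ± 0.06, adjusted p = 0.000512). In both genes KO lay above sgNeg2 in every library, although S100a6 with sg2 alone missed the threshold (0.40, adjusted p = 0.154). Cacybp, whose protein S100A6 binds, rose by 0.50 ± 0.08 (adjusted p = 3.37e-05).

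S100 genes of low level changed by more than S100a6. S100a14, an S100 protein of epithelial cells, held 9.8, 9.48, 9.05 and 9.73 CPM in KO and 4.55 and 4.91 CPM in sgNeg2 libraries (log2 1.02 ± 0.12, edgeR adjusted p = 1.14e-06). S100a9 held 9.91, 9.33, 12.1 and 15.3 against 5.52 and 5.67 CPM (log2 1.07 ± 0.17, adjusted p = 0.000152). Its partner S100a8 stayed near the limit of detection, with 0.563 to 1.29 CPM in KO and 0.212 and 0.611 CPM in sgNeg2 libraries (log2 1.01 ± 0.51, adjusted p = 0.136). S100a3, known from the hair cuticle, held 4.59, 4.06, 5.93 and 4.93 against 3.68 and 2.55 CPM (log2 0.65 ± 0.19, adjusted p = 0.01, and 0.42 without sgNeg2 replicate 2, where the call was lost). The summed level of the 10 leukocyte and myeloid markers was 34.6 to 36.7 CPM in KO and 35.1 to 35.5 CPM in sgNeg2 cells of Hepa1-6, and Ptprc held at most 0.13 CPM. Within that sum Cd14 was lower in every KO library (15.6 to 18.3 against 22.2 and 22.8 CPM), and 4 markers were higher in every KO library. These were Itgam (3.98 to 5.77 against 2.55 and 3.22 CPM), Fcgr3 (5.16 to 6.72 against 3.63 and 4.25 CPM), Csf1r (6.39 to 8.16 against 5.16 and 6.11 CPM) and Lyz2 (0.39 to 0.724 against 0.276 and 0.305 CPM). Their part in the result for S100a9 was not tested.

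S100a10 and Anxa2 rose together in Hepa1-6. S100a10 held 393.6, 404.1, 418.2 and 429.2 CPM in KO and 283.2 and 307.1 CPM in sgNeg2 libraries (log2 0.49 ± 0.04, edgeR adjusted p = 3.75e-09), and Anxa2 rose by 0.24 ± 0.03 (adjusted p = 9.69e-06). Anxa1 held 100.3, 99.3, 103.3 and 107.8 CPM in KO and 65.1 and 62.7 CPM in sgNeg2 libraries (log2 0.69 ± 0.05, adjusted p = 1.46e-10). S100a11, its partner, rose by 0.15 ± 0.04 (adjusted p = 0.00651), and by 0.11 (adjusted p = 0.162) without sgNeg2 replicate 1. S100a1 rose to 66.4, 65.8, 65.9 and 62.2 CPM in KO, against 55 and 54.2 CPM in sgNeg2 libraries (log2 0.26 ± 0.05, adjusted p = 0.000312). Anxa3 rose by 0.24, Anxa7 by 0.19, Anxa8 by 0.35 and S100a13 by 0.22 (0.11, not past the threshold, without sgNeg2 replicate 1). Anxa10, known from stomach and liver, rose but stayed at a trace, with 0.303, 0.124, 0.523 and 0.152 CPM in KO and 0.0359 and 0.0425 CPM in sgNeg2 libraries (log2 2.75 ± 0.98, adjusted p = 0.034, and 0.227 or 0.169 without sgNeg2 replicate 1 or 2). Anxa10 had 2 counts in each sgNeg2 library and passed the filter only through the KO libraries, so its place among the 15 that rose is no support. Anxa4 (-0.19 ± 0.03, adjusted p = 0.000111) and Anxa6 (-0.10 ± 0.03, adjusted p = 0.0214) fell, the second not without either sgNeg2 library (-0.10 each) or sg2 replicate 1 (-0.09).

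Hep53.4 gave a like list with other sizes. Of 22 members tested, 11 rose and 3 fell (63.6%), against 39.2% of all 12227 genes (19.4% rose and 19.7% fell), with medians of 0.11 over the members and 0 over all genes. Anxa8, an annexin of epithelial late endosomes, held 509.8, 518.1, 501.4 and 501.3 CPM in KO and 281.2 and 286.4 CPM in sgNeg2 libraries. This 1.79-fold rise (log2 0.84 ± 0.03, edgeR adjusted p = 2.82e-20) left a wide gap between the groups. S100a10 held 351.3, 335.6, 336.3 and 343.8 CPM in KO and 231.8 and 224.8 CPM in sgNeg2 libraries (log2 0.58 ± 0.03, adjusted p = 7.54e-16). Anxa2 held 1776.4, 1762, 1737.1 and 1762.3 against 1394.8 and 1386.4 CPM (log2 0.34 ± 0.02, adjusted p = 1.3e-12). The annexin A2 pair thus rose in both mouse liver lines, with no overlap between KO and sgNeg2 libraries.

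S100a13 held 61.1, 61.2, 57.4 and 59.9 CPM in Hep53.4 KO libraries and 45.1 and 45.9 CPM in sgNeg2 libraries (log2 0.40 ± 0.05, edgeR adjusted p = 6.18e-08). S100a11 held 797.1, 787.7, 768.5 and 796.5 against 649.7 and 630.6 CPM (log2 0.30 ± 0.03, adjusted p = 1.52e-10). Anxa7, which promotes membrane fusion and binds sorcin, held 288.5, 280.5, 277.7 and 281.8 against 232.8 and 231.4 CPM (log2 0.28 ± 0.03, adjusted p = 2.24e-09). In these 3 genes every KO library was the higher. Sri, the sorcin gene, changed by 0.01 ± 0.05 (adjusted p = 0.93) in Hep53.4, and rose by 0.18 ± 0.05 (adjusted p = 0.00832) in Hepa1-6. S100a6 rose by 0.25 ± 0.02 (adjusted p = 1.48e-09) and S100a4 by 0.22 ± 0.03 (adjusted p = 1.45e-06), to 405.4 to 438.5 CPM in KO against 359.4 and 365.5 CPM in sgNeg2 libraries for S100a4. Anxa10 rose by 0.97 ± 0.15, S100a14 by 0.80 ± 0.23 (not with sg2 alone) and Anxa1 by 0.11 ± 0.03. Anxa6 fell by 0.24, Anxa5 by 0.12 and Anxa4 by 0.07, the last with no call in 7 of 13 alternatives, among them the fits without sgNeg2 replicate 1 or 2 (-0.07 each) and without sg1 replicate 1 or 2 (-0.06 each).

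**Figure D3:**
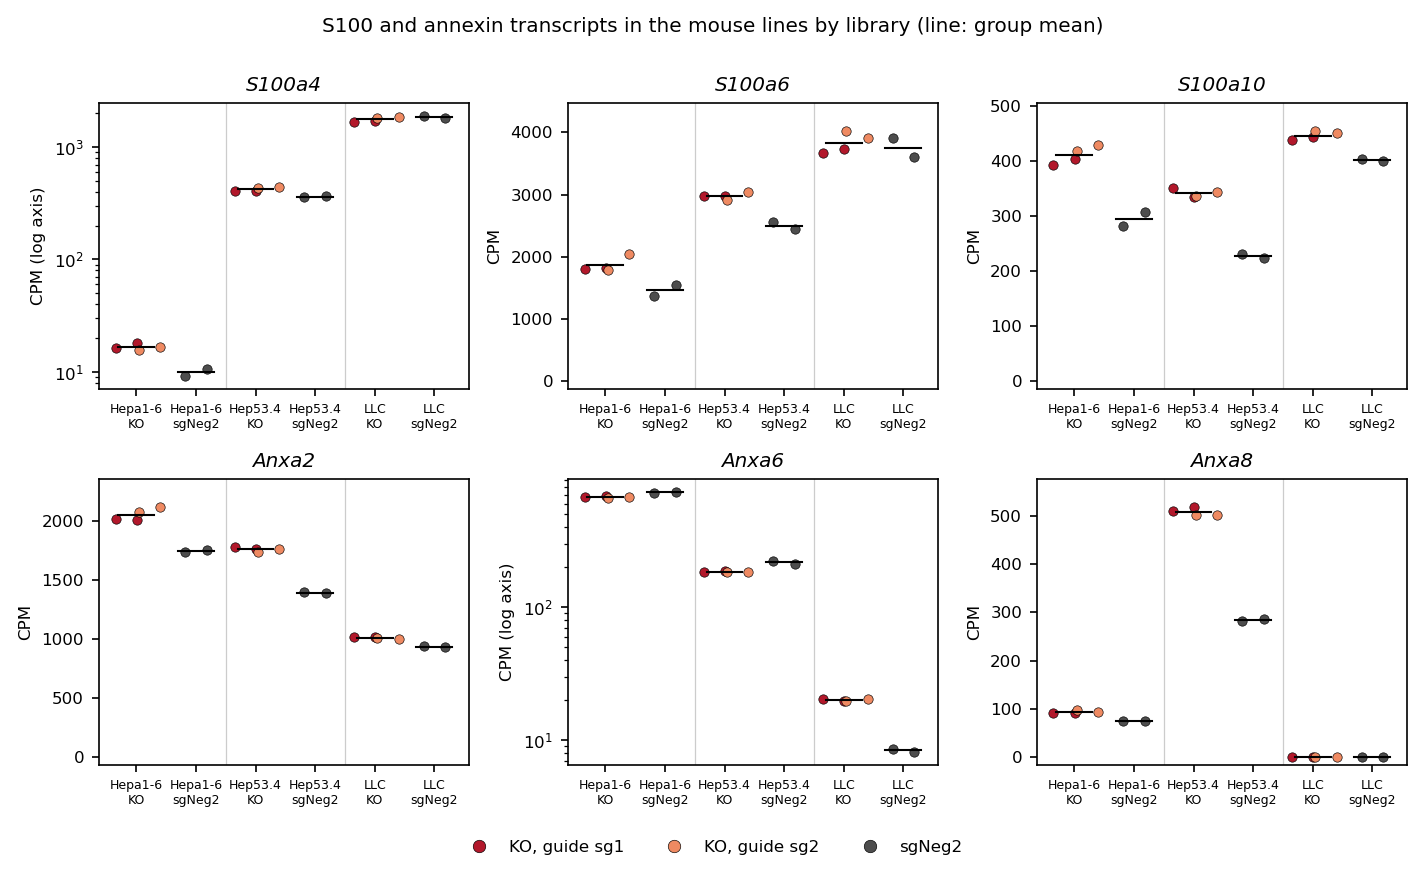
Levels (CPM) of 6 members in each library of Hepa1-6, Hep53.4 and LLC, KO left of sgNeg2, with the group mean as a line and a log axis for S100a4 and Anxa6. S100a10 was higher in KO than in sgNeg2 libraries of each line, and Anxa6 was higher in KO libraries (19.6 to 20.4 CPM) than in sgNeg2 libraries (8.16 and 8.62 CPM) of LLC, but lower in KO libraries of the other two.

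LLC differed. Of 19 members tested, 5 rose and 6 fell (57.9%), against 33.5% of all 12225 genes (16% rose and 17.5% fell), and the median was -0.09 over the members and 0.01 over all genes. Anxa6 held 20.3, 19.6, 19.7 and 20.4 CPM in KO and 8.62 and 8.16 CPM in sgNeg2 libraries (2.35-fold, log2 1.23 ± 0.08, edgeR adjusted p = 8.06e-10). Anxa4 held 132.3, 134.7, 150.3 and 147.1 CPM in KO and 247.4 and 250.2 CPM in sgNeg2 libraries (log2 -0.84 ± 0.04, adjusted p = 8e-11). Anxa11 held 57.1, 59.4, 67.1 and 63.6 against 85.6 and 78.6 CPM (log2 -0.43 ± 0.06, adjusted p = 7.03e-06). Each of these 3 annexins had KO and sgNeg2 libraries apart, Anxa6 on the high side and the other two on the low side. Pdcd6, the penta-EF-hand partner of annexin A11, changed by -0.11 ± 0.05 (adjusted p = 0.12) in LLC and rose by 0.27 in Hepa1-6.

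Anxa3 held 38.1, 35.6, 37.4 and 36.4 CPM in LLC KO and 31.4 and 29.5 CPM in sgNeg2 libraries (log2 0.26 ± 0.06, edgeR adjusted p = 0.00146). Anxa9 held 3.44, 2.98, 2.69 and 2.94 against 2.31 and 1.89 CPM (log2 0.50 ± 0.17, adjusted p = 0.0314), with no call without sgNeg2 replicate 2 or sg1 replicate 1. Anxa5 held 1234.9, 1215.5, 1279.8 and 1319 against 1434.4 and 1395.1 CPM (log2 -0.19 ± 0.04, adjusted p = 0.00209). Anxa1 (-0.14 ± 0.04), Anxa7 (-0.19 ± 0.05) and S100a13 (-0.23 ± 0.05) also fell, and S100a10 (0.13 ± 0.04) and S100a11 (0.10 ± 0.03) rose. Of these, Anxa5, Anxa7 and S100a13 lost the call without LLC sgNeg2 replicate 1, S100a10 without sgNeg2 replicate 2 (0.12), and Anxa1 (-0.15 and -0.13) and S100a11 without either, so the small changes in LLC depend on both control libraries. S100a4, at 1684.5 to 1859.4 CPM in KO and 1881.6 and 1837.1 CPM in sgNeg2 libraries, changed by -0.09 ± 0.05 (adjusted p = 0.121), and S100a6 by 0.01 ± 0.05 (adjusted p = 0.925).

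Whether the KO effect differed between lines was tested in 1 fit of all 18 mouse libraries. The 3 differences share the libraries of a line by pairs and are given side by side. For Hepa1-6 minus Hep53.4, 8 of 27 members passed (5 positive, 3 negative), against 24.7% of all 14195 genes (10.2% positive, 14.5% negative). For Hepa1-6 minus LLC 13 of 27 passed (12 positive, 1 negative), against 24.6% of all genes (9.28% positive, 15.3% negative). For Hep53.4 minus LLC 13 of 27 passed (11 positive, 2 negative), against 29.2% of all genes (13.4% positive, 15.8% negative). The effect on S100a4 was larger in Hepa1-6 than in LLC by 0.84 ± 0.08 (edgeR adjusted p = 1.91e-09) and larger in Hep53.4 than in LLC by 0.29 ± 0.06 (adjusted p = 0.000611). For S100a6 these differences were 0.32 ± 0.07 (adjusted p = 0.00133) and 0.22 ± 0.07 (adjusted p = 0.0226), and for S100a10 they were 0.33 ± 0.05 and 0.43 ± 0.05. Anxa6 went the other way, with -1.37 ± 0.06 (adjusted p = 8.31e-19) for Hepa1-6 and -1.49 ± 0.06 (adjusted p = 1.89e-19) for Hep53.4. Between the liver lines S100a10 and Anxa2 did not pass, while Anxa1 (0.57) and S100a4 (0.54) had larger effects in Hepa1-6 and Anxa8 (-0.50) in Hep53.4.

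**Figure D4:**
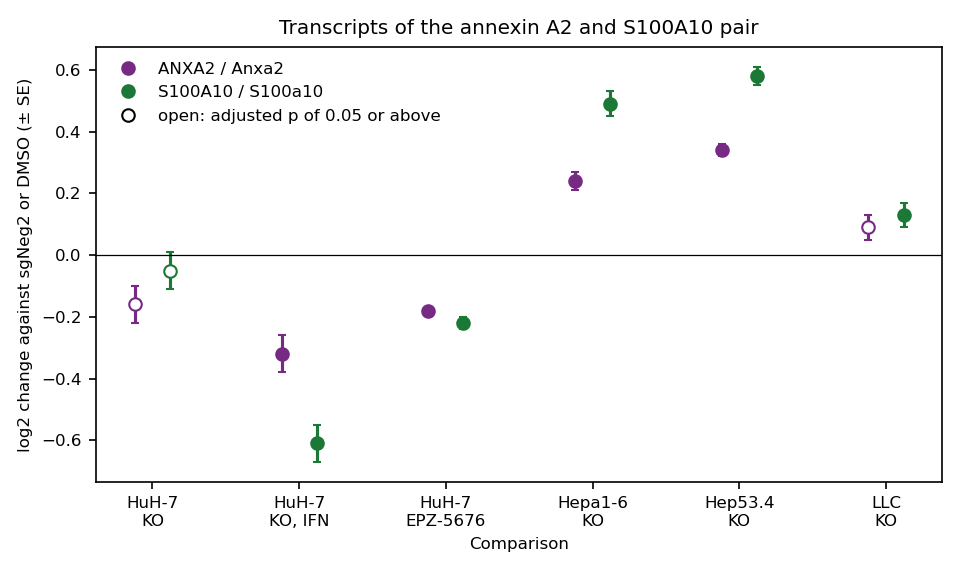
Log2 change with its SE of ANXA2 or Anxa2 and S100A10 or S100a10, KO against sgNeg2 cells or EPZ-5676 against DMSO, in 6 comparisons. All 6 HuH-7 values lie below 0 (S100A10 at -0.61 with IFN) and all 6 mouse values above it (S100a10 at 0.58 in Hep53.4), with open points for the 3 that missed an adjusted p of 0.05.

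The lines also differed at baseline. In sgNeg2 libraries, 24 of 27 members differed between Hepa1-6 and Hep53.4 (10 higher, 14 lower), where 76.2% of all genes did (38.2% higher, 38% lower). Between Hepa1-6 and LLC 20 differed (11 higher, 9 lower), where 81% of all genes did (41% higher, 40% lower). Between Hep53.4 and LLC 23 differed (12 higher, 11 lower), where 78.1% of all genes did (39.6% higher, 38.5% lower). S100a4 held 9.18 and 10.6 CPM in Hepa1-6, 359.4 and 365.5 CPM in Hep53.4 and 1881.6 and 1837.1 CPM in LLC. All neighbours in this order differed (log2 -5.20 ± 0.07 for Hepa1-6 against Hep53.4 and -2.36 ± 0.05 for Hep53.4 against LLC, edgeR adjusted p = 4.37e-34 and 1.33e-27). S100a6 followed the same order at higher counts, with 1372.8 and 1544.6, 2560.6 and 2445.8, and 3912.1 and 3597.4 CPM. Anxa6 had the opposite order, with 730.4 and 731.8 CPM in Hepa1-6, 223.7 and 213.3 CPM in Hep53.4 and 8.62 and 8.16 CPM in LLC. The KO effect on S100a4 was thus largest in the line with the lowest level, and that on Anxa6 was positive in the line with the lowest level. That is a description of 3 lines.

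Anxa8 had no count in any LLC library, against 7648 counts over both sgNeg2 libraries of Hepa1-6 and 29809 over those of Hep53.4, at least 2810-fold and at least 10700-fold higher against 3 counts over the LLC group. S100a9 held 574 counts over both sgNeg2 libraries of Hepa1-6 and none in those of Hep53.4 or LLC (at least 196-fold and at least 211-fold higher). S100g, the vitamin D dependent calcium carrier of the gut, held 67 counts over the Hep53.4 sgNeg2 libraries and none in the others. Anxa3 ran from 818.4 and 812.8 CPM in Hep53.4 through 170.8 and 167.9 CPM in Hepa1-6 to 31.4 and 29.5 CPM in LLC. Anxa2, S100a10, S100a11, S100a13 and S100a1 stayed close, the widest of their differences being 1.86-fold, for Anxa2 between Hepa1-6 and LLC.

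**Figure D5:**
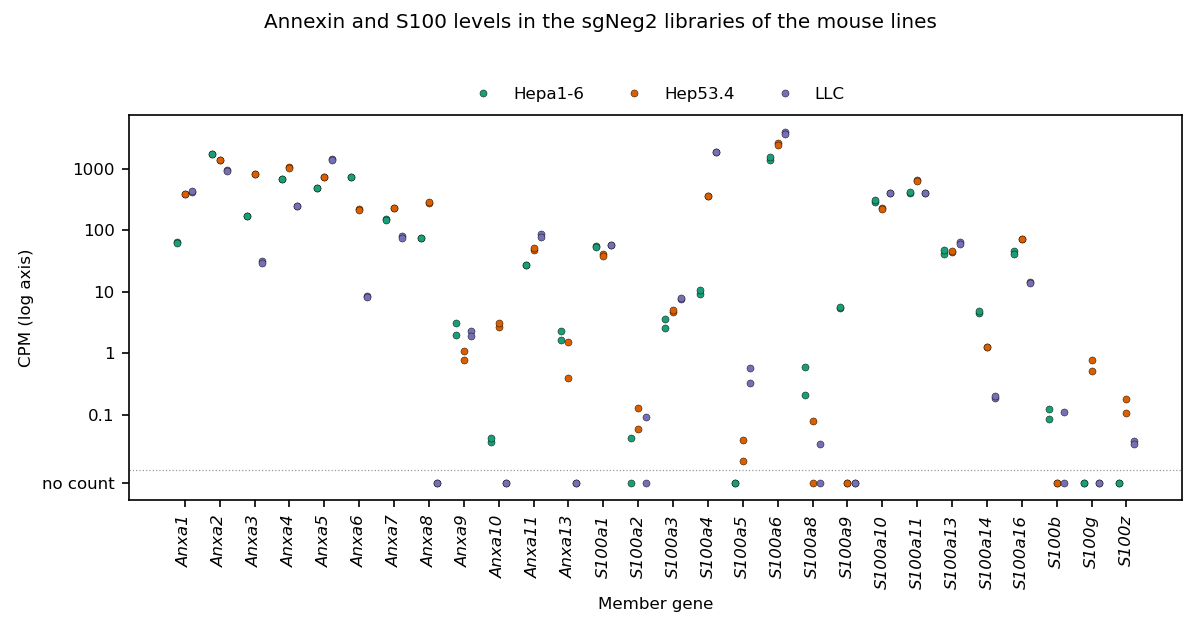
Level (CPM, log axis) of each mouse member in the 2 sgNeg2 libraries of Hepa1-6, Hep53.4 and LLC, with libraries without a count drawn on the lowest line. S100a4 spans from 9.18 CPM in Hepa1-6 to 1881.6 CPM in LLC, whereas Anxa2 lies between 929.7 and 1753.8 CPM.

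The partners of the 2 families were read from lists of known binding genes. Over all genes tested, 6.95% rose and 4.38% fell in HuH-7 KO cells without IFN, 7.11% and 5.27% with IFN, and 15.1% and 18.6% with EPZ-5676. In KO cells of the mouse lines 14.5% rose and 18.3% fell in Hepa1-6, 19.4% and 19.7% in Hep53.4, and 16% and 17.5% in LLC. The counts of each list stand beside these shares. In HuH-7 KO cells without IFN, 4 of 8 tested genes of the plasminogen system rose and 2 fell (median log2 0.49), among them the protease inhibitor SERPINE2 (2.05 ± 0.17, edgeR adjusted p = 6.21e-06) and the urokinase receptor PLAUR (1.23 ± 0.23, adjusted p = 0.00351). With IFN 3 of 8 rose and 3 fell (median 0.01), with SERPINE2 at 1.91 and SERPINF2, the plasmin inhibitor, at -1.12. With EPZ-5676 4 of 9 rose and 2 fell (median 0.03), with SERPINE2 at 1.70, PLAUR at 0.74 and SERPINF2 at -0.57. S100A10 and ANXA2, which hold plasminogen at the membrane, did not rise in any of these 3 comparisons. In the mouse lines Serpine2 rose by 0.30 in Hepa1-6 and 0.96 in Hep53.4, and the activators Plat (0.94) and Plau (0.61) in LLC, where 4 of 5 genes rose and 0 fell (median 0.61). In Hepa1-6 1 of 6 rose and 2 fell (median -0.11), Serpinf2 at -0.73 and Plat at -0.30, and in Hep53.4 2 of 7 rose and 0 fell (median 0.15).

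Among receptors of S100 proteins and annexin A1, MCAM, a cell adhesion molecule that binds S100A8 and S100A9, rose in all 3 HuH-7 comparisons (0.61, 0.65 and 0.51). BSG, another such receptor, fell without IFN (-0.54) and with EPZ-5676 (-0.14), ALCAM rose with IFN (0.64) and EGFR fell with EPZ-5676 (-0.15). In all, 1 of 7 rose and 1 fell without IFN, 2 of 7 and 0 with it and 1 of 6 and 4 with EPZ-5676 (medians 0.18, 0.04 and -0.12). In the mouse lines Alcam fell in each (-0.68 in Hepa1-6, -0.54 in Hep53.4 and -0.45 in LLC), Tlr4 rose in each (0.40, 0.16 and 0.50 in the same order), Egfr was -0.65 in Hepa1-6 and 0.26 in Hep53.4, and Mcam rose in LLC (1.9). The counts were 1 of 8 up and 4 down in Hepa1-6, 2 of 7 and 2 in Hep53.4 and 2 of 7 and 2 in LLC (medians -0.04, 0.16 and 0.03).

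Of 20 intracellular partners tested in HuH-7, 2 rose and 1 fell without IFN, 2 rose and 3 fell with IFN and 3 rose and 10 fell with EPZ-5676 (medians 0.02, -0.07 and -0.07), where 6.95% of all genes rose and 4.38% fell without IFN, 7.11% and 5.27% with it, and 15.1% and 18.6% with EPZ-5676. DYSF, the membrane repair protein dysferlin that binds annexins A1 and A2, rose in all 3 (1.15, 2.22 and 1.12). Its relative MYOF rose by 0.33 without IFN and by 0.30 with EPZ-5676. DLC1, which S100A10 binds, was at -0.35 without IFN and -0.70 with it, and STUB1 was at -0.31 with EPZ-5676. AHNAK2 held 0.117 to 0.28 CPM in KO libraries with IFN and no count in the sgNeg2 libraries. The counts in mouse were 5 up and 5 down of 18 in Hepa1-6 (Pla2g4a 1.76, Dlc1 -0.66, Cacybp 0.50), 4 up and 6 down of 19 in Hep53.4 (Stk38 -0.33, Trp53 -0.26, Ppfibp1 -0.26) and 3 up and 3 down of 19 in LLC (Kcnk3 2.50, Dysf 0.60, Myof 0.31), with medians of 0, 0.01 and 0. Kcnk3 held 0.484 to 0.728 CPM in LLC KO and 0.131 and 0.067 CPM in sgNeg2 libraries. It passed the filter only through the KO libraries, so its call gives no support beyond these levels. Pla2g4a held 0.417 to 0.996 CPM in Hepa1-6 KO and 0.252 and 0.17 CPM in sgNeg2 libraries, the latter near the count minimum.

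Other EF-hand genes changed in both directions. In HuH-7, 3 of 27 rose and 3 fell without IFN, 1 rose and 3 fell with IFN, and 4 rose and 11 fell with EPZ-5676 (medians -0.04, -0.08 and -0.03). Of all genes, 6.95% rose and 4.38% fell without IFN, 7.11% and 5.27% with it, and 15.1% and 18.6% with EPZ-5676. CAPN2, the large subunit of m-calpain, rose in each (1.30, 1.06 and 0.65) and VSNL1, a neuronal calcium sensor, was lower in each (-1.10, -1.23 and -0.32). GCA rose by 2.54 without IFN, at a low level (0.792 to 1.27 CPM in KO against 0.215 and 0.128 CPM in sgNeg2 libraries). CALML4 was at -0.43 with IFN and NUCB2 rose by 0.32 with EPZ-5676. In mouse, 5 of 22 rose and 5 fell in Hepa1-6 (Cetn3 0.55, Cetn2 0.27, Nucb1 -0.25), 9 of 24 and 2 in Hep53.4 (Nucb2 -0.27, Capns1 0.22, Sdf4 0.22) and 5 of 24 and 11 in LLC (Efhd1 0.78, Hpcal1 -0.41, Chp1 -0.38), with medians of 0.04, 0.11 and -0.07. Of the S100 fused-type and cornified envelope genes 1 was tested in HuH-7 guide libraries and did not pass, while Sprr1b rose in Hepa1-6 (0.95) and Hep53.4 (1.5) and Sprr1a was at -0.22 in Hepa1-6.

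Members that are not named above with values were few or not past the threshold. ANXA8, ANXA10, S100A3 and S100Z had at most 8 counts in any guide library and were not tested in HuH-7, and ANXA13 (at most 10 counts) did not pass. ANXA8 and ANXA8L1 are nearly identical, so their counts are uncertain. ANXA7 did not pass in any HuH-7 comparison of KO or EPZ-5676 (log2 -0.12, -0.10 and -0.03), nor did S100P, a placental and pancreatic S100 protein (0.11, 0.69 and -0.22). In mouse, S100a2, S100a5, S100b and S100z held at most 0.57 CPM in any library, and S100a16 and Anxa13 did not pass in KO against sgNeg2 cells of any line where they were tested. Members called in at least 1 line also had values that did not pass in another, among them Anxa11 (-0.20 in Hepa1-6 and 0.12 in Hep53.4), Anxa9 (0.39 and 0.03), S100a3 (-0.31 in Hep53.4 and -0.18 in LLC), S100a1 (0.11 and 0.02), Anxa5 (-0.03 in Hepa1-6), Anxa3 (-0.01 in Hep53.4), S100a14 (-0.70 in LLC) and Anxa2 (0.09 in LLC).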

How the data were processed

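RNA sequencing of 36 libraries was deposited as whole-number read counts per gene, not normalized. Trim Galore, HISAT2 2.2.1, SAMtools 1.9 and DESeq2 1.36.0 are named in the submitters' processing notes. The counting program, annotation and use of strand are not stated. Libraries were grouped by their labels. Counts were tested with edgeR 4.0.16 (quasi-likelihood, robust, TMM scaling) in R 4.3.3 with limma 3.58.1, after a filter for at least 10 counts (15 in total). HuH-7 guide libraries shared 1 fit, drug libraries another, each mouse line its own, and differences between lines a fit of all 18. P-values were adjusted by Benjamini-Hochberg over all genes tested, and called below 0.05. CPM are counts scaled by the TMM-adjusted library total, and SE is the log2 change over the root of F. The procedure was tested on simulated data. Named with every library's value were members called in at least 1 KO or EPZ-5676 comparison, in the comparison of largest change, with their binding partners beside them and up to 3 called genes per partner list. The members and lists were chosen with earlier results of these data known. Same-numbered replicates did not deviate together (r of -0.061 to 0.062 over 51 pairs), so no block was used. In groups of 2 libraries the deviations from the group mean mirror each other. Most of these pairs therefore repeat a value, and the check is weak. Alternatives were DESeq2 1.42.0, RLE scaling, no filter, a replicate block, single guides, smaller fits, DMSO controls and leaving out each library. Fitting each mouse line within all 18 libraries was added after seeing the data. Values of 1 gene of the partner lists are not reported here.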

Additional observations from a re-analysis of the deposited data

Results flagged for a closer look

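One library stood apart from the other KO libraries of its line for 2 genes. In Hepa1-6, sg2 replicate 2 held 62.2 CPM of S100a1 where the other 3 KO libraries held 65.8 to 66.4 CPM, and 2051.7 CPM of S100a6 where they held 1781.7 to 1815.1 CPM. Of 56 groups of 4 KO libraries examined, these 2 had such a gap. Chance gives about 1 in 20, so 2 of 56 is no more than chance would give.

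The KO effect on S100A10 differed between HuH-7 cells with and without IFN (-0.55, edgeR adjusted p = 0.0183).

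Between mouse lines the KO effects of several members differed in edgeR's test of the difference. For Hepa1-6 minus Hep53.4 the log2 differences were 0.95 for S100a3, 0.57 for Anxa1, 0.54 for S100a4, 0.24 for Anxa3, 0.13 for Anxa6, -0.16 for S100a11, -0.33 for Anxa11 and -0.50 for Anxa8. For Hepa1-6 minus LLC they were 1.71 for S100a14, 0.84 for S100a4, 0.80 for Anxa1, 0.79 for S100a3, 0.62 for Anxa4, 0.42 for S100a13, 0.36 for S100a16, 0.34 for Anxa7, 0.33 for S100a10, 0.32 for S100a6, 0.21 for S100a1, 0.13 for Anxa2 and -1.37 for Anxa6. For Hep53.4 minus LLC they were 1.49 for S100a14, 0.75 for Anxa4, 0.60 for S100a13, 0.53 for Anxa11, 0.44 for Anxa7, 0.43 for S100a10, 0.29 for S100a4, 0.23 for Anxa1, 0.23 for Anxa2, 0.22 for S100a6, 0.18 for S100a11, -0.29 for Anxa3 and -1.49 for Anxa6. Of 16 alternatives for each set, Anxa2 lost the call for Hepa1-6 minus LLC in 7, S100a1 in 6, S100a16 in 3, S100a14 in 2 and S100a3 in 1. For Hep53.4 minus LLC S100a14 lost it in 6, S100a6 in 2 and S100a11 in 1, and for Hepa1-6 minus Hep53.4 Anxa6 lost it in 5, S100a11 in 3 and Anxa11 in 1. S100a14 had only 2 to 12 counts in each LLC library, so its differences from LLC rest on low counts. All these differences use the libraries of each line in more than 1 of the 3 sets.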

How the results depend on the processing

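Leaving out each library gave 2 to 6 members called for KO without IFN (2 without sgNeg2 replicate 1 and 3 without replicate 2), 5 to 8 for KO with IFN (5 without sgNeg2 replicate 1), 0 to 3 for the interaction, 7 to 8 for EPZ-5676, 10 to 11 for IFN, 13 to 19 in Hepa1-6, 13 to 16 in Hep53.4 and 6 to 11 in LLC (6 and 7 without sgNeg2 replicates 1 and 2). For the differences between lines it gave 6 to 9, 9 to 14 and 10 to 14, and at baseline 22 to 23, 20 to 20 and 22 to 23. With guide sg2 alone 3 members were called without IFN, and DESeq2 called 3 in the interaction. ANXA4 with IFN was -0.35 against DMSO libraries, which carry no guide. Their histone share is like that of the IFN libraries and unlike that of the guide libraries without IFN. The cause of this change of sign was not tested. Of values of members called in the fit reported, 1876 kept call and direction under an alternative, 125 lost the call and 1 changed sign. Of those not called, 1940 stayed without a call (83 with the opposite sign) and 60 gained one (2 with the opposite sign). Low counts limit ANXA1, S100A9, Anxa10 and, in LLC, S100a14 most.

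The replicate numbers gave no sign of pairing the samples in the check made. With a replicate block, 6 members were called for KO without IFN, 8 with IFN, 11 for IFN, 1 for the interaction, 8 for EPZ-5676, 17 in Hepa1-6, 13 in Hep53.4 and 10 in LLC. The differences between lines gave 8, 13 and 13 members with the block, and the baselines 24, 20 and 23.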
